A study of Mus musculus with 11 samples.

Results

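The mitochondrial ribosomal protein genes are the protein-coding mouse genes whose symbols start with Mrpl or Mrps followed by a digit, and 78 of 21631 protein-coding genes on chromosomes 1 to 19 and X met that rule. Their peaks were read from 11 CUT&RUN libraries of 2 untreated cell lines, M00002 and M00001, each grown from a mouse tumour and carrying an HA-tagged fusion labelled CRfus1, taken here as the ZFTA-RELA fusion of the series title. In this assay an antibody directs a nuclease to the protein or histone mark of interest, and the fragments it cuts free are sequenced. M00002 was profiled for HA, IgG (the control antibody), p65 (the protein encoded by Rela) and H3K27ac, an acetylation of histone H3 found at active promoters and enhancers, with antibodies ac4729 and ac647. M00001 was profiled for HA, IgG, the histone acetyltransferases Cbp and p300, and Rpb1, the catalytic subunit of RNA polymerase II, with antibodies written S2 and S5. The labels do not spell out S2 and S5, and what drives expression of the fusion is not stated in them. Nor do they say whether the p65 antibody also binds the RELA part of the fusion. HA and p65 at the same site therefore need not be separate proteins.

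Only HA and IgG were profiled in both lines, so H3K27ac or p65 and polymerase at a gene come from different lines. Each line comes from 1 mouse and each target from 1 library per line, so no difference below has a replicate check and no test was made. The intervals given are exact Clopper-Pearson 95% intervals for a share of genes and cover counting error only. The lists used held between 1592 peaks for IgG of M00001 and 29937 peaks for HA of M00002, against 8504 for HA of M00001. Read counts are not part of these lists, and the depth of each library is unknown. The names of the HA and p65 lists of M00002 contain the mark 120 bp, and that of the HA list of M00001 does not, so this unexplained mark and the line cannot be told apart for HA. H3K27ac of both antibodies lay at 4 of 7 neural tumour markers (Hes1, Nes, Sox9 and Vim, but not Sox2, Fabp7 or Id3). It lay at 0 of 6 leukocyte markers and 1 of 5 endothelial or fibroblast markers (Pdgfrb). Protein-coding genes outside the mitochondrial ribosomal set had it at 12.1%. S2 of M00001 lay at 2 of the 7, 0 of the 6 and 1 of the 5, against 40.7%.

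Mitochondria keep a ribosome of their own, which translates the few proteins encoded in mitochondrial DNA, all of them subunits of the respiratory chain and ATP synthase. Its RNA comes from mitochondrial DNA, but every one of its proteins is encoded in the nucleus, made in the cytosol and imported. Mrpl genes in the main encode the large subunit, where peptide bonds form, and Mrps genes the small subunit, which binds the mRNA. Some of these proteins descend from bacterial ribosomal proteins and others are found only in the mitochondrial ribosome. Many of the genes are short, are expressed in most cells and start close to the start of another gene.

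Here too the genes were short and crowded. Their median length was 7690 bp, against 17390 bp for the other 21553 protein-coding genes, and ran from 825 bp at Mrpl53 to 121712 bp at Mrps28. An end of another protein-coding gene lay within 1 kb of either end for 44 members (56.4%), against 25.0% of the other genes. For 24 members the neighbour started within 1 kb on the opposite strand, as Mrpl46 and Mrps11 did, whose starts lie 42 bp apart. A peak was counted for a gene when it lay within 1 kb of either gene end, so a peak between neighbours counts for each of them, and the neighbour is named where this applies. A gene said to have or lack a peak has or lacks it within that distance of an end, and peaks deeper inside a gene are left out of every share.

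Polymerase and H3K27ac were the marks most often found at these genes. S2 lay at 60 of 78 members (76.9%, 95% interval 66.0 to 85.7), against 40.7% of the other protein-coding genes. H3K27ac with ac4729 lay at 42 members (53.8%, 42.2 to 65.2), against 32.3%. S5 lay at 27 members (34.6%, 24.2 to 46.2), against 20.9%. For all 3 lists the members' interval lay above the share of the other genes. Only 9 members (11.5%) had no peak in any list, against 46.7% of the other genes.

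HA was found at fewer members in M00001 than in M00002. HA of M00002 lay at 28 members (35.9%, 25.3 to 47.6), against 25.3% of the other genes, a share at the lower bound of the members' interval. HA of M00001 lay at 5 members (6.41%, 2.11 to 14.3), against 10.3%. These 5 also had HA in M00002, so HA in both lines was found at 6.41%, against 9.01%, and no member had HA in M00001 alone. The 23 members with HA in M00002 alone made up 29.5%, against 16.3% of the other genes. The list of M00002 is the longer one. With its 8504 strongest peaks, as many as M00001 has, HA of M00002 lay at 12.8% of members and 11.1% of the other genes.

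The remaining lists stood nearer to the other genes. p65 lay at 14 members (17.9%), against 15.3%, and ac647 at 8 members (10.3%), against 13.1%. H3K27ac of both antibodies lay at 7 members (8.97%), against 12.1%. p300 lay at 7 members (8.97%), against 6.65%, and Cbp at 5 members (6.41%), against 3.52%. IgG of M00002 lay at 2 members (2.56%), against 1.43%. IgG of M00001 lay at 0 members (95% interval up to 4.62%, and 3.85% by the rule of 3 counts for a count of 0), against 0.422% of the other genes. For each of these lists the members' interval included the share of the other genes. With only its 2000 strongest peaks, Cbp still lay at 5 members (6.41%), against 1.16% of the other genes. For 3 of the 5 Cbp peaks at members the nearest known start was another gene's. With peaks that overlap IgG removed, Cbp lay at 5.13% of members, against 3.30%.

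**Figure D1:**
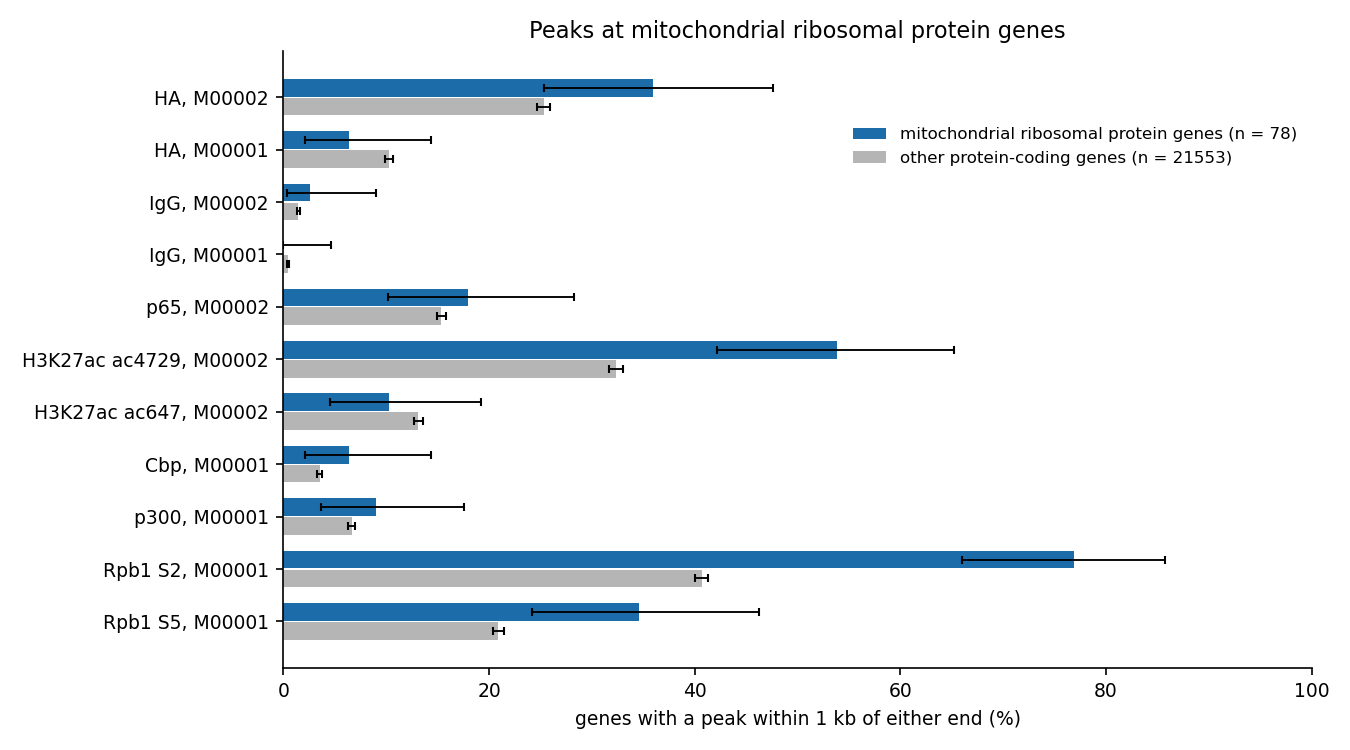
Share of genes (%, horizontal axis) with a peak within 1 kb of either end, for each of the 11 lists (rows). Blue bars are the 78 mitochondrial ribosomal protein genes, grey bars the 21553 other protein-coding genes, and error bars exact 95% Clopper-Pearson intervals; S2 (76.9% against 40.7%) and ac4729 (53.8% against 32.3%) stand farthest apart.

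Many of these genes had polymerase or H3K27ac peaks without an HA peak. S2 without HA of M00001, measured in the same line, was found at 55 members (70.5%), against 31.8% of the other genes. Of the 60 members with S2, 25 had HA in M00002 and 35 had HA in neither line. ac4729 together with S2, but without HA of either line and without p65, was found at 17 members (21.8%), against 9.23%. Among them were Mrpl18, Mrpl32, Mrpl45, Mrps9 and the neighbours Mrpl46 and Mrps11. S2 was the only list with a peak at 13 members (16.7%), against 7.20%, among them Mrpl39, Mrps15, Mrps17 and Mrps33. Mrpl3, Mrpl11 and Mrps21 had ac4729 alone.

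Set against genes that carry the same mark, the members' shares with HA were below those of the other genes in both lines. Among genes with S2, HA of M00001 lay at 5 of 60 members (8.33%, 2.76 to 18.4), against 21.9% of the other genes. Among genes with ac4729, HA of M00001 lay at 4 of 42 members (9.52%, 2.66 to 22.6), against 25.8%. HA of M00002 lay at 25 of 60 members with S2 (41.7%, 29.1 to 55.1), against 49.2%, and at 18 of 42 with ac4729 (42.9%, 27.7 to 59.0), against 54.9%. For HA of M00001 the members' intervals lay below the share of the other genes. For HA of M00002 with S2 or ac4729 they included it, so the higher share of HA in M00002 among all members was not seen among genes with polymerase or H3K27ac.

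Shares of p65 and ac647 were also below those of genes with the same mark, for p65 within the interval and for ac647 outside it. Among genes with HA of M00002, p65 lay at 10 of 28 members (35.7%, 18.6 to 55.9), against 53.0% of the other genes. Among genes with ac4729, ac647 lay at 7 of 42 members (16.7%, 6.97 to 31.4), against 37.6%. S5 lay at 25 of 60 members that had S2 (41.7%, 29.1 to 55.1), against 47.1%. S2 was also common away from the fusion, at 35 of 50 members without HA of M00002 (70.0%), against 27.6%.

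**Figure D2:**
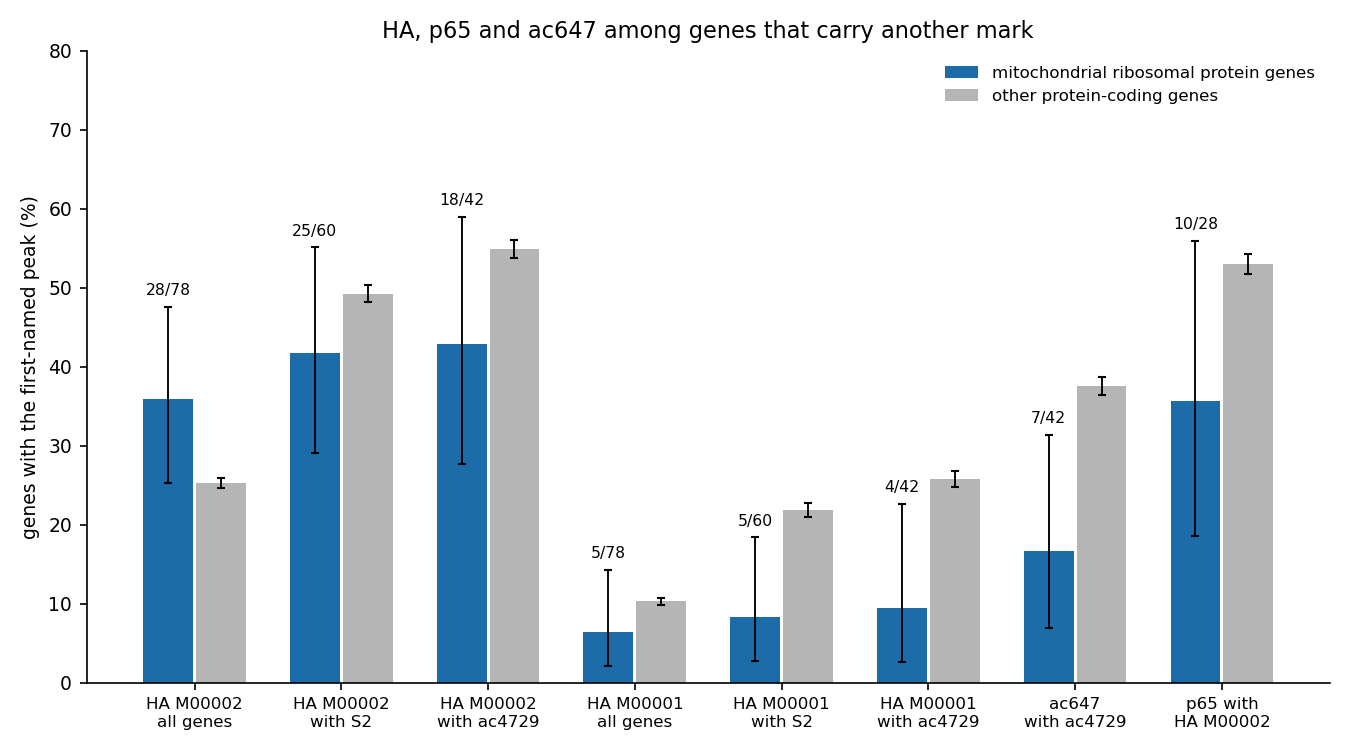
Share of genes (%, vertical axis) with the first-named peak, among all genes or among those that carry the second-named mark. Blue bars are members, with their counts above, grey bars the other protein-coding genes, and error bars exact 95% Clopper-Pearson intervals; HA of M00001 among genes with S2 was 8.33% against 21.9%.

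The large and small subunits are described here by counts alone. HA of M00002 lay at 23 of 51 large subunit genes (45.1%) and at 5 of 26 small subunit genes (19.2%), on either side of the 25.3% of other protein-coding genes. ac4729 lay at 32 large subunit genes (62.7%) and 10 small subunit genes (38.5%), against 32.3%. S2 and S5 were close in both, with S2 at 74.5% and 80.8%, against 40.7%, and S5 at 33.3% and 34.6%, against 20.9%. p65 lay at 8 large (15.7%) and 6 small subunit genes (23.1%), against 15.3%. Mrps30 and Mrps18a are counted with the large subunit, where their proteins sit. Mrps36, whose protein is now known as a subunit of the 2-oxoglutarate dehydrogenase complex, had S2 at 6.84-fold and S5 at 6.32-fold and belongs to neither.

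By descent, 48 members encode homologues of bacterial proteins and 29 encode proteins found only in the mitochondrial ribosome. HA of M00002 lay at 16 of the former (33.3%) and 12 of the latter (41.4%), against 25.3% of other protein-coding genes. S5 lay at 13 (27.1%) and 13 (44.8%), against 20.9%, and S2 at 35 (72.9%) and 24 (82.8%), against 40.7%. No peak in any list was found at 8 of the 48 bacterial homologues (16.7%) and 1 of the 29 others (3.45%), against 46.7% of other protein-coding genes. The 8 are Mrpl4, Mrpl16, Mrpl22, Mrpl24, Mrpl35, Mrpl36, Mrps5 and Mrps18c. The other one is Mrps23. At Mrpl22, Mrpl36 and Mrps23 a start in the RefSeq promoters lies more than 1 kb from either gene end. A peak at that start alone is not counted. Farther than 1 kb from the ends, Mrpl24 had 1 peak each of S2, ac4729 and ac647, covering 5.13%, 11.1% and 8.55% of the gene, and Mrps23 had 2 S2 peaks and 1 ac4729 peak, covering 8.40% and 2.15%. Whether these peaks inside Mrpl24 and Mrps23 lay at a start was not measured. For S2, S5 and H3K27ac, the other 7 had no peak inside the gene either. Mrpl36 lies next to Ndufs6, a gene for a subunit of respiratory complex I, and Mrps18c starts 159 bp from Helq, a DNA helicase gene.

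**Figure D3:**
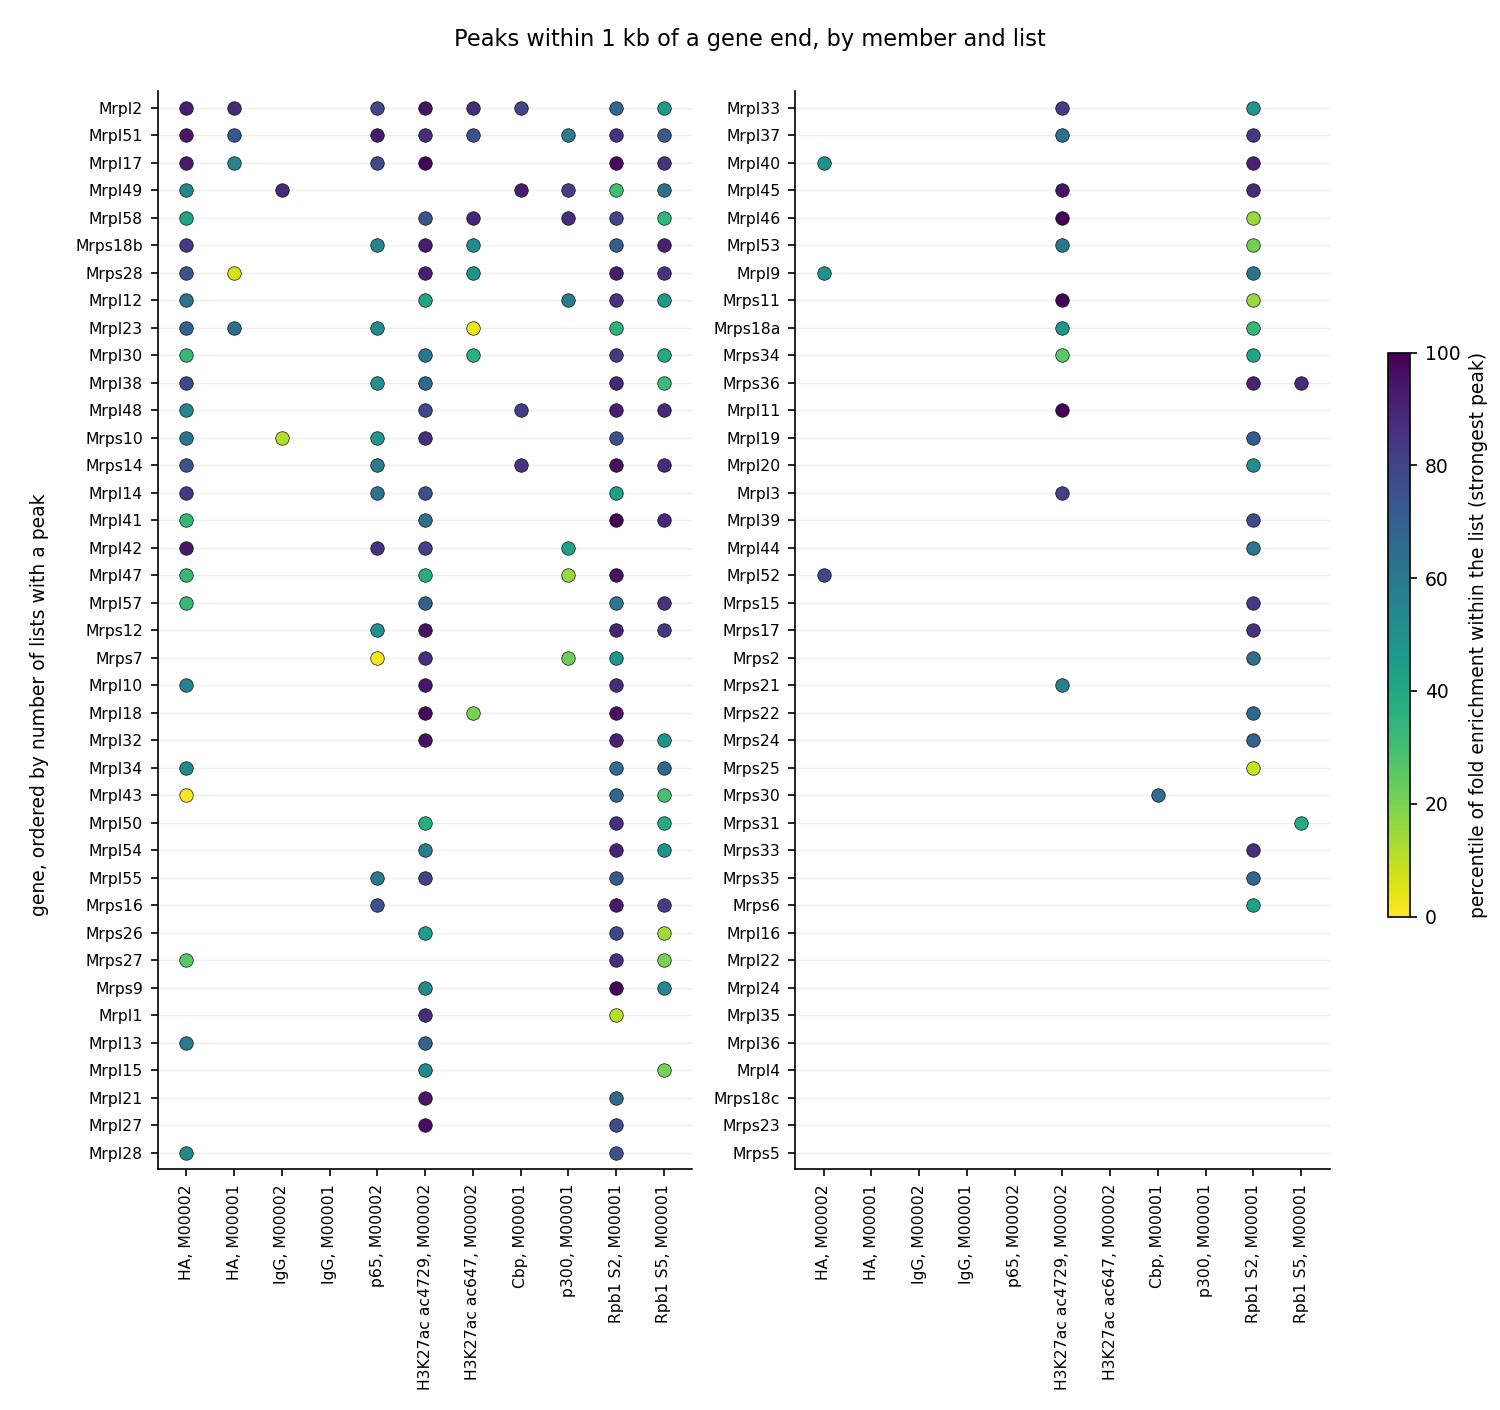
Every member (rows, in 2 columns of panels) against the 11 lists (horizontal axis), ordered by the number of lists with a peak. A point marks a peak within 1 kb of a gene end, coloured by the percentile of its strongest peak's fold enrichment within that list; 9 members are empty and 2, Mrpl2 and Mrpl51, have peaks in 8 lists.

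The values per peak are the authors' fold enrichment at the summit over the local background, and percentiles rank a peak within its own list, so folds are not compared between lists. The 30 distinct HA peaks of M00002 at members ran from 2.88-fold at Mrpl43 to 14.2-fold at Mrpl42, with a median of 5.00, against 5.78 at peaks near the ends of other genes. ac4729 peaks had a median of 4.77 at members and 4.37 elsewhere, and 28.9% of them were among the strongest 10% of the list, against 19.3%. S2 peaks had medians of 4.92 and 4.89. Peaks at members were thus of ordinary height for HA and S2. Among the strongest 10% of their list were 13.3% of HA peaks of M00002 at members, against 13.0% near the ends of other genes. For HA of M00001 it was 0 of only 6 peaks, against 10.9%.

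HA in both lines lay at Mrpl51, Mrpl17, Mrpl2, Mrpl23 and Mrps28, and at each of them the peaks of the 2 lines overlapped. Mrpl17 encodes a large subunit protein with a bacterial homologue and has no neighbour within 1 kb. Its gene lies at chr7:105803782-105811087 on the minus strand of mm10. HA was 13.3-fold in M00002 (chr7:105810950-105811162, percentile 92.9) and 4.61-fold in M00001 (chr7:105810843-105811063, percentile 55.0), both with the summit 85 bp inside the gene from its start. A further HA peak of M00001, 3.83-fold, lay 824 bp before the start. p65 was 7.71-fold with its summit at 42 bp, S2 9.09-fold at 107 bp before the start and S5 5.89-fold at 63 bp before it. ac4729 was 10.2-fold and lay 241 bp inside the gene. Mrpl17 was thus a start with HA of both lines, p65, ac4729 without ac647, both polymerase lists and no other gene at hand.

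Its promoter, from 250 bases before to 50 bases after the start, is shown because HA of both lines lay at this start with no other gene near. It is the RefSeq sequence of GRCm38.p6, chr7:105811038-105811337, minus strand, 5′ to 3′, with motif matches in capitals. Those are 1 match to CCGGAAG, the core bound by ETS factors, and 2 to GCGCANGCG, the site of NRF1, an activator of many nuclear genes for mitochondria.
Mrpl17: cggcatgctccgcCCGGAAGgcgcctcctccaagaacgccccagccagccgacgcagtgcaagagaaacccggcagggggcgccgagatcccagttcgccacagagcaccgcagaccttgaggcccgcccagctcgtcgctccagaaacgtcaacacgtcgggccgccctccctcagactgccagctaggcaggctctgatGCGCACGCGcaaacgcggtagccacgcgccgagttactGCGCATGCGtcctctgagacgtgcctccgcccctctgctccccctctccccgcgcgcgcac
Counted from the start, the NRF1 matches begin at −49 and −11 and the ETS match at −237. HA of both lines, p65, S2 and S5 overlapped this window, and ac4729 ended short of it.

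Mrpl51 encodes a mitochondria-specific protein of the large subunit and lies at chr6:125192200-125194392 on the plus strand. It faces Ncapd2, which encodes a condensin subunit and has its start 614 bp away in the RefSeq promoters. Starts here are those of the RefSeq promoters and can differ from the outer end of a gene. HA was 13.9-fold in M00002 (chr6:125191702-125191880, percentile 93.8) and 6.12-fold in M00001 (chr6:125191736-125192043, percentile 73.4). p65 was 12.5-fold, the strongest p65 peak at any member. The HA summit of M00002 lay at −396 bp from the start of Mrpl51 and 218 bp from that of Ncapd2, nearer to the neighbour. The p300 (4.06-fold), S2 (5.99-fold) and S5 (4.98-fold) summits were also nearer to the start of Ncapd2. The ac4729 (5.47-fold) and ac647 (5.18-fold) peaks covered the start of Mrpl51, with summits 154 and 59 bp inside it. All of these peaks lay within 1 kb of both genes.

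The Mrpl51 promoter is shown for the sequence next to the member (RefSeq, GRCm38.p6, chr6:125191950-125192249, plus strand). The capitals mark its match to CCGGAAG, at −90 from the start.
Mrpl51: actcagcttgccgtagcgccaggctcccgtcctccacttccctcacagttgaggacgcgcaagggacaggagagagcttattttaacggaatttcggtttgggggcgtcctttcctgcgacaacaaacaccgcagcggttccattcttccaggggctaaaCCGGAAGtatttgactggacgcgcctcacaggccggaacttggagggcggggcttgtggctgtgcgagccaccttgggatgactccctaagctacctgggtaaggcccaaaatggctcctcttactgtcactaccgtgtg
The HA peak of M00001 overlapped this window, and the HA and p65 peaks of M00002 ended before it.

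Mrpl2 encodes a protein of the large subunit's catalytic core and lies at chr17:46646172-46650132 between Klc4 and Cul7. HA was 12.8-fold in M00002 (chr17:46650372-46650666, percentile 92.2) and 8.68-fold in M00001 (chr17:46650413-46650723, percentile 88.5), the strongest HA peak of M00001 at any member. Both lay beyond the far end of Mrpl2, with the summits 229 and 188 bp from the start of Cul7, a cullin of a ubiquitin ligase. p65 at 7.85-fold, ac4729 at 6.53-fold, ac647 at 6.28-fold, Cbp at 4.30-fold and S5 at 3.96-fold lay there too. At the start of Mrpl2 itself only S2 had a peak, 3.26-fold and shared with Klc4. The high count of lists at Mrpl2 is therefore a count for the Cul7 start.

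Mrpl23 and Mrps28 have no neighbour within 1 kb. Mrpl23 encodes a protein near the exit of the tunnel through which the new peptide leaves the large subunit. HA there was 6.50-fold in M00002 (chr7:142533198-142533423) and 5.34-fold in M00001 (chr7:142533196-142533479), 221 and 209 bp inside the gene. p65 was 4.90-fold, ac647 2.84-fold and S2 3.42-fold, and no ac4729 peak lay within 1 kb of an end. Deeper inside Mrpl23, 2 ac4729 peaks covered 24.4% of the gene and, counting the one near the start, 4 ac647 peaks covered 33.6%. Mrps28 encodes a small subunit protein. HA there was 7.23-fold in M00002 (chr3:8923399-8923530) and 2.98-fold in M00001 (chr3:8923451-8923661), where the −log10 q was 0.11, the weakest of the 5. ac4729 was 5.90-fold, ac647 4.21-fold, S2 7.32-fold and S5 5.91-fold. Of the 5 members, Mrpl17, Mrpl23 and Mrps28 thus had HA in both lines at an end of their own.

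**Figure D4:**
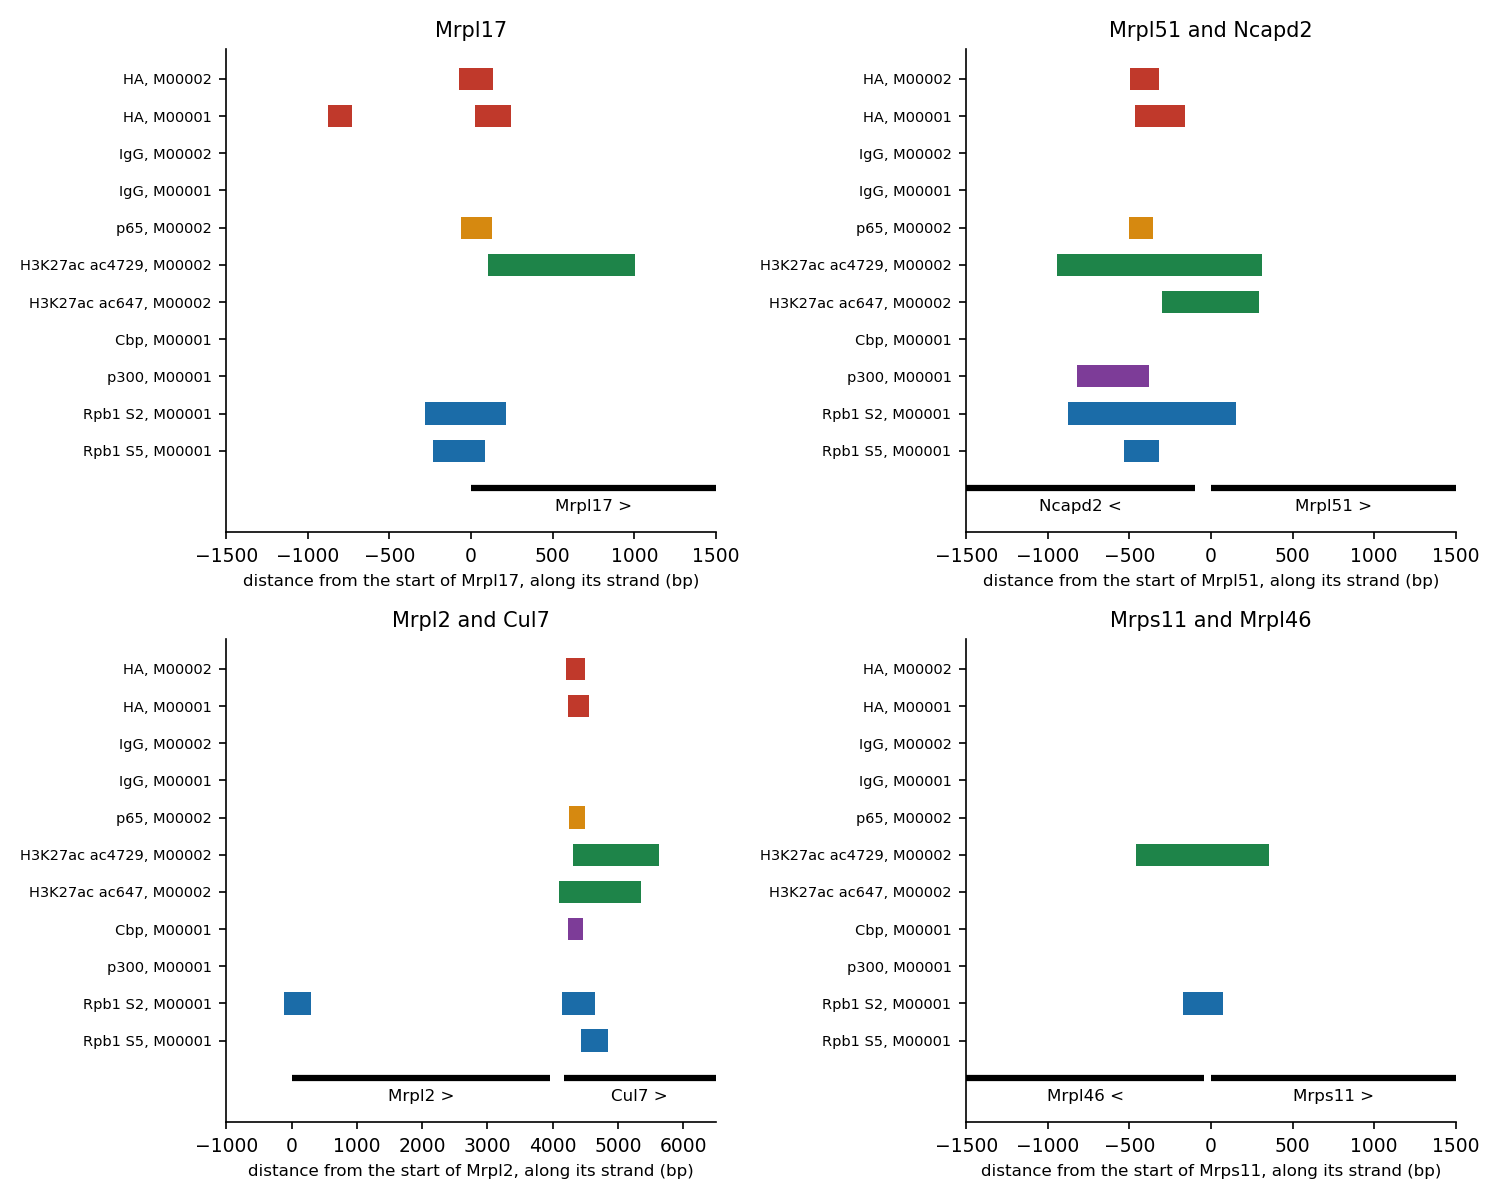
Peaks (bars, by list in rows) around Mrpl17, Mrpl51 with Ncapd2, Mrpl2 with Cul7, and Mrps11 with Mrpl46. The horizontal axis is the distance in bp from the member's start along its strand and black bars are genes with their direction; HA lies at the Mrpl17 start, on the Ncapd2 side of the Mrpl51 start and beyond the far end of Mrpl2, while Mrps11 and Mrpl46 have only ac4729 and S2.

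Of the members with HA in M00002 alone, Mrpl42 had the strongest peak, 14.2-fold (chr10:95501965-95502116, percentile 94.1). It encodes a mitochondria-specific protein of the mitochondrial ribosome, lies at chr10:95480805-95501949 on the minus strand and has no neighbour within 1 kb. The HA summit lay 98 bp before the start, p65 at 9.38-fold lay 93 bp before it, and ac4729 at 5.04-fold 108 bp before it. p300 in M00001 was 3.69-fold, and neither S2 nor S5 had a peak. Mrpl42 thus had HA, p65 and ac4729 without ac647 in M00002, and no HA or polymerase peak in M00001.

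Its promoter was chosen after its values were seen, as the counterpart of Mrpl17 with the fusion in 1 line (RefSeq, GRCm38.p6, chr10:95501900-95502199, minus strand). The capitals mark the match to AAGATGGCG, the site of the factor YY1, which begins 27 bases after the start.
Mrpl42: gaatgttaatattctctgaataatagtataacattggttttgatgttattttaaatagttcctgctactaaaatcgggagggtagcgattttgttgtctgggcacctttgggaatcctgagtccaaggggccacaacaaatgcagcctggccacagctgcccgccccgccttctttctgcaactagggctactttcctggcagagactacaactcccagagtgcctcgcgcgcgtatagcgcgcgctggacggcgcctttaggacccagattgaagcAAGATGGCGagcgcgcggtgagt
HA and p65 of M00002, ac4729 and p300 overlapped this window.

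The next in order were Mrpl14 at 9.23-fold, Mrps18b at 9.01, Mrpl52 at 8.07, Mrpl38 at 7.80 and Mrps14 at 7.01. The Mrpl14 peak, with p65 at 5.69-fold, lay 35 bp before its start and is shared with Tmem63b. The strongest Mrps18b peak lay at its far end, 52 bp from the start of Atat1, a tubulin acetyltransferase gene, and 2 weaker ones of 3.98 and 4.67-fold lay near its own start, shared with Ppp1r10. Mrpl52 had its HA summit 20 bp before the start and no peak in any other list. Mrpl38 had p65 at 4.79-fold, ac4729 at 4.43, S2 at 6.59 and S5 at 3.69 beside HA. Mrps14, a small subunit gene with a bacterial homologue, had p65 at 5.50-fold, Cbp at 4.80, S2 at 8.60 and S5 at 6.26, all within 173 bp of its start and with no neighbour. Mrps14 thus had 5 lists at a start of its own, and Mrpl52 had HA alone.

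The other 17 members with HA in M00002 alone had weaker peaks, from 2.88 to 5.61-fold. In 13 of them the peak was shared with a neighbour: Hgs at Mrpl12, Mtbp at Mrpl13, Pgap6 at Mrpl28, Mitd1 at Mrpl30, Abhd8 at Mrpl34, Hira at Mrpl40, Pnpla7 at Mrpl41, Twnk at Mrpl43, Ndufb5 at Mrpl47, Rab6a at Mrpl48, Fau at Mrpl49, Ska3 at Mrpl57 and Lrrc46 at Mrpl10. Some of these neighbours serve mitochondria too: Twnk encodes the mitochondrial DNA helicase and Ndufb5 a subunit of complex I. At Mrpl58, Mrps10 and Mrps27 the peak lay at the far end. Mrpl9 had a peak of 4.49-fold, 17 bp before its start, that is not shared. Of the 28 members with HA in M00002, 7 had only peaks with −log10 q under 2, among them Mrpl30, Mrpl41, Mrpl47 and Mrpl57 at 3.74-fold.

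Sharing with neighbours was common in every list with many peaks. Of 30 distinct HA peaks of M00002 at members, 19 also lay within 1 kb of a neighbour, as did 26 of 45 for ac4729, 37 of 66 for S2, 18 of 28 for S5 and 7 of 14 for p65. For 27 of the HA peaks the start of the member was known, and the nearest known start was the member's in 16 and another gene's in 11. For ac4729 it was the member's in 30 of 38 and for S2 in 42 of 58. HA of M00002 lay at 19 of 44 members with a neighbour (43.2%), against 40.4% of other genes with one. It lay at 9 of 34 members without one (26.5%), against 20.3%.

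For S2, HA of M00002 and ac4729, most members with a peak near an end had one at the start. Counting peaks within 1 kb of an end keeps these distances short, and they were not measured at other genes. Starts were known for 69 members. The S2 summit nearest the start lay within 250 bp of it in 47 of 54 members with S2, at a median distance of 86 bp, and S2 peaks covered the start in 50. The nearest HA summit of M00002 lay within 250 bp in 19 of 25, at a median of 111 bp, and an HA peak covered the start in 9. ac4729 summits lay within 250 bp in 28 of 36. In 4 members with HA in M00002 (Mrpl2, Mrpl58, Mrps10 and Mrps27) the peak lay only at the far end. For S2 the far end alone was found in 1 member, Mrpl1, at 2.77-fold.

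**Figure D5:**
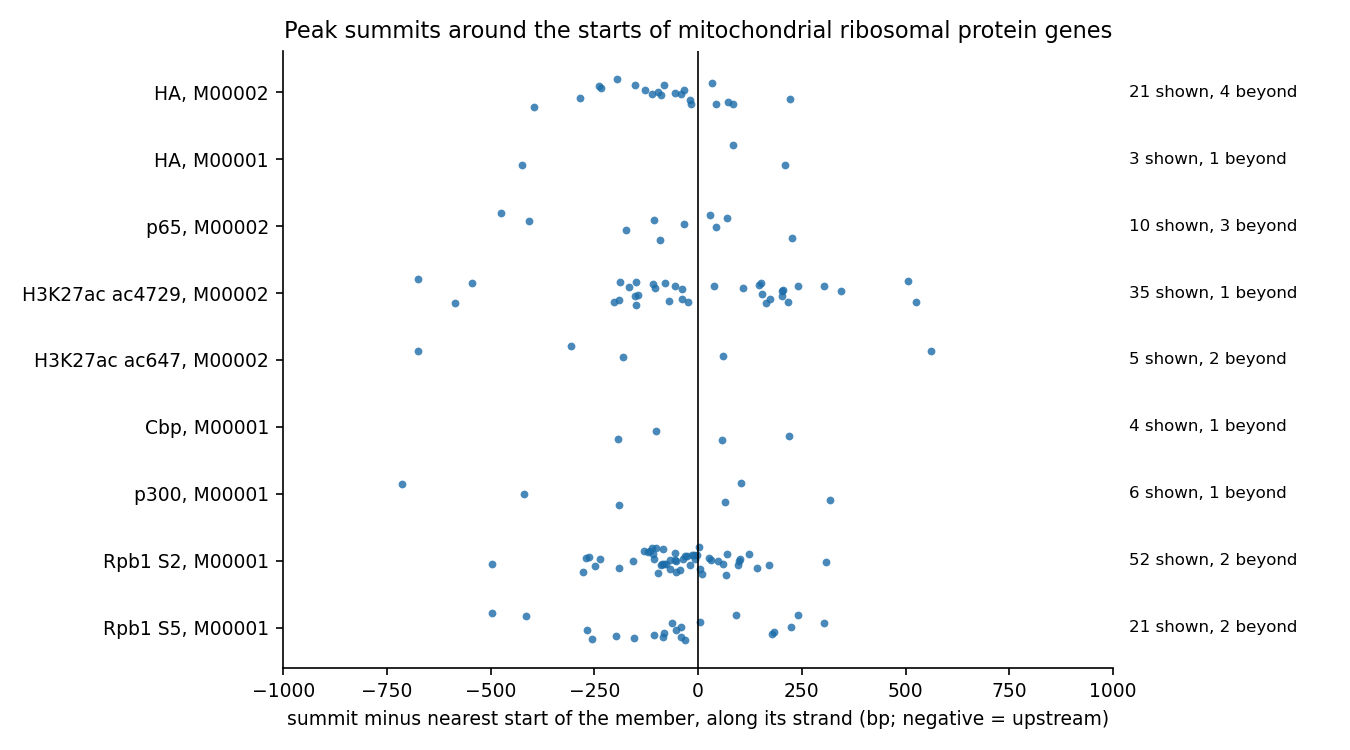
Distance in bp (horizontal axis, along the member's strand, negative before the start) from the start of each member to its nearest summit, for 9 lists (rows). Each point is 1 member, heights within a row only separate points, and the counts at the right give members within and beyond 1 kb; 52 S2 summits and 21 HA summits of M00002 are shown, with 2 and 4 beyond.

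Among genes with p65, HA of M00002 lay at 10 of 14 members (71.4%, 41.9 to 91.6), against 87.3% of the other genes. p65 without HA in M00002 lay at the remaining 4 members. Mrps16 had 7.19-fold, with the summit 35 bp before the start and the peak shared with Cfap70, and Mrpl55 had 5.57-fold, 29 bp inside the gene. Mrps12, which faces Sars2 (the mitochondrial seryl-tRNA synthetase) with the starts 147 bp apart, had 4.77-fold. Mrps7 had 2.92-fold at its far end, shared with Mif4gd. Mrps16 and Mrps12 carried S2 and S5, and Mrpl55 and Mrps7 carried S2 without S5. The Mrps16 promoter (RefSeq, GRCm38.p6, chr14:20393585-20393884, minus strand) is shown for its match to GGNNTTTCC, letters found in NF-kappaB sites, which begins 5 bases after the start and overlaps the edge of the p65 peak (chr14:20393625-20393820) in part.
Mrps16: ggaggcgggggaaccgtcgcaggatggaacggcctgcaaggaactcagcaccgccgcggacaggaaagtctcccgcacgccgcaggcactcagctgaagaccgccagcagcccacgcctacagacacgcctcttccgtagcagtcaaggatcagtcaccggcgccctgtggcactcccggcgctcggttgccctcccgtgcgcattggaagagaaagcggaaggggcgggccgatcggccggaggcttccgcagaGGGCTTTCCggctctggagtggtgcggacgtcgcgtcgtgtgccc
The capitals mark that match.

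The letters GGNNTTTCC were found in 4 of 69 member promoters (5.80%), those of Mrpl16, Mrps12, Mrps16 and Mrps21, and in 6.69% of 17205 other genes with a promoter in the table. They were in 0 of 25 promoters of members with HA in M00002 and in 4 of 44 without. ETS letters were found in 26 member promoters (37.7%), against 13.0%, NRF1 letters in 16 (23.2%), against 9.68%, and YY1 letters in 8 (11.6%), against 2.11%. GGGGCGGGG, found in SP and KLF sites, was in 13 (18.8%), against 17.5%, and TGACGTCA, the cAMP response element, in 2 (2.90%), against 2.57%. ETS letters were in 10 of 25 members with HA in M00002 and 16 of 44 without, and NRF1 letters in 8 and 8. Both strands were searched, and NRF1 letters can match both strands at the same place. Median GC content was 58.0% in member promoters and 56.5% in the others. A match is a description of letters and not of a bound factor.

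The strongest ac4729 peak at members, 11.6-fold (chr7:78782671-78783489, percentile 99.6), lay between Mrpl46 and Mrps11, one gene for each subunit of the mitochondrial ribosome. It was shared by both, with S2 at 2.90-fold (chr7:78782962-78783203, percentile 15.1), and HA, p65, Cbp, p300 and S5 had no peak there. The strength of H3K27ac and of S2 thus stood far apart at this pair, in libraries of different lines. The Mrps11 promoter (RefSeq, GRCm38.p6, chr7:78782881-78783180, plus strand) is shown since it spans both starts.
Mrps11: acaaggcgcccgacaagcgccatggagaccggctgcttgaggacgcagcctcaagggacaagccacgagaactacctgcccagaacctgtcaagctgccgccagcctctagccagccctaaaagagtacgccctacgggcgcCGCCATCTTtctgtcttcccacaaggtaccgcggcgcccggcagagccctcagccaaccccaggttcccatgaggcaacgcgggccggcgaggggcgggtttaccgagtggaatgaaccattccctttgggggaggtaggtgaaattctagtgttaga
The capitals are the YY1 letters on the opposite strand, beginning at −108 from the start.

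Next for ac4729 were Mrpl17 at 10.2-fold, Mrpl11 at 9.30, Mrpl18 at 7.42, Mrpl32 at 6.96 and Mrpl27 at 6.92. Mrpl18 is shared with Tcp1, a subunit gene of a cytosolic chaperonin, Mrpl32 with Psma2, a proteasome subunit gene, and Mrpl27 with Eme1, an endonuclease gene. Summed over both antibodies, H3K27ac peaks near the ends were widest at Mrpl2 with 2593 bp, Mrpl51 with 1850, Mrpl18 with 1482, Mrps28 with 1351, Mrpl57 with 1162 and Mrps18b with 960. The widest stretches were at members whose peaks are shared, apart from Mrps28. The 7 members with H3K27ac of both antibodies were Mrpl2, Mrpl18, Mrpl30, Mrpl51, Mrpl58, Mrps18b and Mrps28. At Mrpl58 they did not meet, with ac4729 at the start (chr11:115403776-115404305) and ac647 at the far end (chr11:115412336-115412660), while in the other 6 they overlapped. Mrpl23 had ac647 alone near an end.

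For polymerase, the strongest S2 peaks were at Mrpl41 with 10.6-fold (percentile 99.0), Mrps9 with 9.75, Mrpl17 with 9.09, Mrps14 with 8.60, Mrpl18 with 8.40 and Mrpl47 with 8.10. Mrpl41 is shared with Pnpla7, Mrpl18 with Tcp1 and Mrpl47 with Ndufb5, and the peaks of Mrps9, Mrpl17 and Mrps14 are not shared. The strongest S5 peaks were at Mrps18b with 6.68-fold, Mrps36 with 6.32, Mrpl41 and Mrpl48 with 6.28, Mrps14 with 6.26 and Mrps28 with 5.91. Those of Mrps18b, Mrpl41 and Mrpl48 are shared with Ppp1r10, Pnpla7 and Rab6a. At Mrps18b and Mrpl48 the S5 summit lay nearer to the neighbour's start. Both polymerase lists were high at Mrpl41 and Mrps14. Mrpl15 and Mrps31 had S5 without S2 near an end, and Mrps31 had 1 S2 peak deeper in the gene.

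Cbp and p300 both lay at 1 member (1.28%), against 1.38% of the other genes. Cbp lay at Mrpl2, Mrpl48, Mrpl49, Mrps14 and Mrps30, from 3.78 to 5.96-fold, and p300 at Mrpl12, Mrpl42, Mrpl47, Mrpl49, Mrpl51, Mrpl58 and Mrps7, with strongest peaks from 3.27 to 5.51-fold. Only Mrpl49 had both, with Cbp at 5.96-fold and p300 at 4.96-fold. Its site is the start of Fau, which encodes a cytosolic ribosomal protein joined to a ubiquitin-like one, 192 bp from that of Mrpl49. IgG of M00002 had a peak of 5.33-fold at that site (chr19:6057898-6058065, percentile 88.5), overlapping HA at 4.89-fold, and Cbp, p300, S2 and S5 overlapped it as well. Its part in those peaks was not tested. The other IgG peak, 2.87-fold at the far end of Mrps10, overlapped no HA peak.

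Other genes of mitochondrial translation, from a list of proteins that build, load and run this ribosome, were read the same way, and 62 were found in the gene table. S2 lay at 54 of them (87.1%, against 40.7% of all genes other than the members), ac4729 at 37 (59.7%, against 32.3%) and S5 at 20 (32.3%, against 20.9%). HA of M00002 lay at 17 (27.4%), close to the 25.3% of those genes, and 3 had no peak. HA of both lines lay at 8 (12.9%), against 9.01%. Among translation factors these were Tufm, the elongation factor that delivers tRNA, at 15.7-fold in M00002 and 5.41-fold in M00001, Lrpprc, an mRNA-stabilising protein, at 9.26 and 3.48-fold, and Taco1, an activator of the translation of a mitochondrial mRNA, at 18 and 16.1-fold. Among tRNA synthetases they included Ears2 at 15.2 and 10.7-fold, Pars2 at 11.3 and 4.70-fold and Lars2 at 35.6 and 22.9-fold. Mpv17l2, an assembly factor, had 6.82 and 4.60-fold. IgG of both lines also had peaks at Taco1 (22.8-fold in M00002 and 5.78-fold in M00001) and Lars2 (32.5 and 15.5-fold). Lars2 had a peak in every list, at percentile 97.8 or above in each. The part of IgG signal at these genes was not tested.

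Cytosolic ribosomal protein genes, 86 by symbol and including near-identical copies, serve as the nearest comparison. ac4729 lay at 66 of them (76.7%), against 53.8% of the mitochondrial ribosomal protein genes, and ac647 at 24 (27.9%), against 10.3%. S5 lay at 50 (58.1%), against 34.6%, while S2 lay at 68 (79.1%), against 76.9%. HA lay at 27 in M00002 (31.4%), against 35.9%, and at 8 in M00001 (9.30%), against 6.41%. The gene sets thus stood close for S2, HA of both lines and for genes with no peak (12.8% and 11.5%), and farther apart for S5 and H3K27ac, with the higher share at the cytosolic genes.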

How the data were processed

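CUT&RUN libraries of 2 mouse tumour cell lines were read as 11 peak lists, 1 per library and not pooled. Per the submitters' processing notes, the build was mm10 and the tools included MACS2, Bowtie2 2.3.5.1, deepTools, FastQC and Trim Galore. No list held a −log10 p under 3, and neither the control nor the threshold of peak calling is given in the sources used here. Per the column order of MACS2, the authors' deposited lists give a score, a fold enrichment (a ratio over local background), a −log10 p, a −log10 q and a summit for each peak.

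Peaks on chromosomes 1 to 19 and X were matched with Python 3.11.15 and pandas 2.3.3 to the gene table of RefSeq GRCm38.p6, within 1 kb of either gene end. Strand, starts and sequences came from the RefSeq promoter table, which holds 69 of 78 members. Exons and introns were not analysed here. The matching was tested on simulated data. Named genes were the strongest members of each list, those with IgG, with Cbp or p300, or with no peak, and members that neighbour each other. The members and lists were chosen with earlier results of these data known. Alternatives covered the window, the peak threshold, peaks that overlap IgG, neighbouring genes and the background of genes.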

Additional observations from a re-analysis of the deposited data

How the results depend on the processing

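No paired analysis was possible because each target has 1 library per line. Of 87 alternative values, 59 moved little: 2 are counts of members with HA at an overlapping site, within 1.5 times of the count given, and the rest kept the side of the members against the other genes and the 95% interval of the members' share. Of the others, 10 kept the side but left that interval, and 18 changed side; the cause was not tested, except that fewer peaks or fewer genes enter where the setting says so. S2, and ac4729 except among genes with S2, stayed higher at members under the alternatives run. With a window of 5 kb, p65 lay at 34.6% of members (25.0% of the other genes), H3K27ac of both antibodies at 20.5% (19.8%) and p300 at 10.3% (10.4%). With the 2000 strongest peaks of each list, the shares were 0% (1.87%) for HA in both lines, 1.28% (2.60%) for p65, 1.28% (0.812%) for H3K27ac of both antibodies, 12.8% (5.93%) for S5, 11.5% (8.16%) for S2, 2.56% (2.32%) for p300, 2.56% (2.64%) for HA of M00002 and 15.4% (5.51%) for ac4729. Cbp lay at 6.41% (1.16%) at that setting and at 5.13% (0.993%) when −log10 q had to be at least 2. With the 8504 strongest HA peaks of M00002 the share was 12.8% (11.1%). Without genes that have a neighbour within 1 kb, HA in both lines lay at 8.82% (6.79%). Among the 7 members with H3K27ac of both antibodies, HA in both lines and p65 lay at 42.9% each (37.3% and 52.7%), S5 at 85.7% (59.9%), S2 at 100% (82.0%) and p300 at 28.6% (25.1%). Among genes with ac4729, p65 lay at 26.2% (36.2%), S5 at 45.2% (48.1%), p300 at 14.3% (15.9%) and Cbp at 4.76% (7.32%). Among genes with S2, p65 lay at 21.7% (30.6%), S5 at 41.7% (47.1%), p300 at 10.0% (14.8%), Cbp at 6.67% (6.94%), HA of M00002 at 41.7% (49.2%) and ac4729 at 60.0% (62.9%). HA in both lines at an overlapping site was found at 5 members, at 5 when 50% of the shorter peak had to overlap and at 4 when −log10 q had to be at least 2. Peak lists without read counts limit what can be said: a missing peak is not shown to be a missing signal.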
